A study of Mus musculus with 51 samples.

Results

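The genes described are those of splicing factors and other RNA-binding proteins in the mouse cochlea, measured in neurons and supporting cells after noise or a mock exposure. They were taken by symbol. A member was any gene whose symbol is Rbm followed by a digit, or starts with Prpf, Srsf, Snrp, Sf3, Hnrnp, U2af, Ptbp, Pcbp or Pabp. This rule took 73 of the 6248 genes in the files: 19 Rbm, 14 Hnrnp, 11 Prpf, 6 Snrp, 6 Sf3, 6 Pabp, 5 Srsf, 4 Pcbp and 2 Ptbp genes. No U2af gene was among them. Of the 73 members, 58 passed the filter on low values and were tested, and 15 were not: Hnrnpa0, Hnrnpf, Hnrnpul1, Pabpc4l, Prpf3, Prpf38a, Prpf4b, Rbm15, Rbm24, Rbm28, Rbm47, Sf3a3, Sf3b5, Snrpa and Snrpf.

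The spliceosome removes introns from pre-mRNA. Its core particles pair small nuclear RNAs with Sm proteins (Snrp genes), the SF3 complexes hold the branch site (Sf3 genes), and Prpf proteins build and rearrange the catalytic complex. SR proteins (Srsf genes) mostly promote exon use, while hnRNPs and Ptbp proteins bind nascent RNA and often oppose it. Pcbp and Pabp proteins bind C-rich stretches and poly(A) tails and act on mRNA stability and translation as well. Neurons are known for a splicing programme of their own, in which Ptbp1 gives way to Ptbp2 and SmN, the product of Snrpn, takes the place of SmB.

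The measurements came from GeoMx, in which light releases barcoded probes from regions drawn on a section, and sequencing then counts the probes of each region. All animals were male CBA/CaJ mice of 16 weeks, and the labels name no transgene or drug for any group; the cochleae were cut fresh-frozen at 6 µm. The noise groups had 2 h of broadband noise at 100 dB SPL and the controls a mock exposure, with 5 animals in each. The sample titles add 4 h for both treatments, whereas the design text places collection right after the exposure, so the time of collection is not settled. The 50 regions used were 16 neuron regions after mock, 12 neuron regions after noise, 14 supporting-cell regions after mock and 8 supporting-cell regions after noise. A further noise neuron region, replicate 6, held 1 equal value for every gene and was left out. No label links a region to its animal. With 5 animals per treatment and 8 or more regions per group, some animals must have given more than 1 region to a group. The p-values of noise against mock treat regions as independent and are therefore too small. Those between region types by limma allow for the captured area but not for the animal, and the permutation tests allow for neither. None of them measures the spread between animals.

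The deposited signal was scaled by the authors to a common upper quartile of 3.12 per region, and 99.99% of values were whole multiples, within 0.01, of the lowest value in their region, taken as the worth of 1 read. The reads recovered in this way totalled 10147 to 58022 per mock neuron region, 12128 to 88156 per noise neuron region, 9607 to 22926 per mock supporting-cell region and 11770 to 25605 per noise supporting-cell region. In neuron regions a single read was worth a median signal of 0.780 after mock and 0.650 after noise. In supporting-cell regions it was worth 1.30 and 0.910. The negative probe, which has no target in the tissue, read 1.09 ± 0.314 (SD, n = 16) and 1.12 ± 0.235 (n = 12) in neurons and 1.54 ± 0.256 (n = 14) and 1.42 ± 0.202 (n = 8) in supporting cells, mock first. In most regions of a group, 61 and 66 of the 73 members stood above it in neurons (mock, then noise), and 27 and 54 in supporting cells. Most members were thus measured from a few reads: the median member had a median of 2, 3, 1.5 and 2 reads per region. Snrpn, with a median of 83 reads in mock neurons, Hnrnpk, with 14, and Hnrnpl, with 13, were measured with more.

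The region labels were set against markers. All 11 neuron markers listed, Nefl and Tubb3 among them, were higher in neuron than in supporting-cell regions under mock (limma, median log2 difference 1.77), and 10 of 11 after noise (1.27). Their summed signal was 162 to 405 in mock neurons against 50.9 to 114 in mock supporting cells, and 109 to 248 against 37.4 to 105 after noise. Of 6 glial markers, among them Mbp and Sox10, 4 were lower in neuron regions under mock and 1 after noise. Of 7 markers of organ of Corti supporting cells, Sox2 and Prox1 were in the files, with a summed signal of 2.08 to 6.24 in mock supporting cells and 1.56 to 8.32 in mock neurons, so these regions are called supporting cells by their label alone. None of the 5 macrophage markers was among the 6248 genes analysed here, so the regions were not checked for macrophages. In such regions, fewer cells of a type and less RNA per cell cannot be told apart.

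Upstream sequences are shown for 4 members on which the comparison of region types turned, 3 higher and 1 lower in neurons. The RefSeq windows of GRCm38.p6 used here held the 250 bases before the start site of 59 of the 73 members. Pcbp3, Snrpb and Rbm27 had none shown. Rbm27 and Pabpc2 share a chromosome, and no member window there was counted, so RefSeq may hold windows for more than 59 members. No such limit was put on the set of all windows, so the shares below come from sets not chosen alike. Of 84 such windows, 53.6% held the GC box GGGCGG on either strand, against 32.7% of all 32851 windows. CCAAT was found in 44.0% against 33.8% and TATAAA in 9.52% against 12.4%. The median GC content was 59.4% against 52.4%. The windows run 5′ to 3′ on the strand of the gene, and capitals mark these motifs on either strand.

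Snrpn, chr7:60005200-60005449, minus strand: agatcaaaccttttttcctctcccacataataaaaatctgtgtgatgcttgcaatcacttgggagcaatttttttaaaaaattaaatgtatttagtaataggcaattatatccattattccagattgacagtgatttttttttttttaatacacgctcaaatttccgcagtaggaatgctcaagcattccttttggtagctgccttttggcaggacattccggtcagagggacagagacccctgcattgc
Hnrnpk, chr13:58402118-58402367, minus strand: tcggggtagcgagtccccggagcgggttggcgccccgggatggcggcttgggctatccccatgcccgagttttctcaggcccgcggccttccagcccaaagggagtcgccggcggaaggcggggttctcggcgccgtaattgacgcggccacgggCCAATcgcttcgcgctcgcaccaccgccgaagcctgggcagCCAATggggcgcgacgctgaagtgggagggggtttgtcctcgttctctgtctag
Hnrnpl, chr7:28810640-28810889, plus strand: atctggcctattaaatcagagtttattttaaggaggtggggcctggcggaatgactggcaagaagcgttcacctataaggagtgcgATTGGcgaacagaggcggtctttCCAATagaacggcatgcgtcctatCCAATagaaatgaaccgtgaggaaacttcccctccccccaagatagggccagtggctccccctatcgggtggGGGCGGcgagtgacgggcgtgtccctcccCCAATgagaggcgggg
Srsf6, chr2:162931258-162931507, plus strand: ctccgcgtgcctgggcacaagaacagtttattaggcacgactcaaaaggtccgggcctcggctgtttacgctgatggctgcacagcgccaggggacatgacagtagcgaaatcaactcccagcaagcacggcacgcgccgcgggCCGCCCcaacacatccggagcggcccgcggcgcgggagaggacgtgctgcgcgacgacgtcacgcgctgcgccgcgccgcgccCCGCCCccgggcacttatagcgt

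The Snrpn window is the one nearest the 3′ end of the gene among 4 start sites. It held 3 CpG pairs, a GC content of 36.8% and none of the motifs. Hnrnpk had 30 CpG pairs and 2 CCAAT matches, Hnrnpl had 14 CpG pairs, 4 CCAAT matches and 1 GC box, and Srsf6 had 35 CpG pairs and 2 GC boxes. These matches are a description of the letters and were not set against the signal.

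Neurons and supporting cells under mock exposure were compared first, to see which of these genes mark the region types at rest. In neurons, 6 members were higher: Snrpn of the Sm core, the hnRNP genes Hnrnpk, Hnrnpl and Hnrnph1, and the poly(C)-binding genes Pcbp2 and Pcbp3. The SR gene Srsf6, the tri-snRNP gene Prpf4 and Rbm27 were lower. These 9 were 15.5% of the 58 members tested, against 20% of all 4686 genes tested (limma with captured area as a random block, Benjamini-Hochberg over all genes, called below an adjusted p of 0.05). By direction, the 6 higher members stood beside a background of 13.8% and the 3 lower ones beside 6.19%. This split turned with the scaling, to 5 higher and 6 lower with median centring and to 11 higher and 1 lower with the negative probe subtracted. Over all genes the same settings moved it from 649 higher of 939 to 479 of 1077 and to 1073 of 1149. The median log2 difference over the 58 members was -0.06, and over all genes it was -0.05. Differences are on the log2(signal + 1) scale, neurons minus supporting cells, which understates the change of low genes.

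Snrpn encodes SmN, the Sm protein of neurons, from an imprinted locus. Its transcript also carries Snurf, so its signal does not separate the reading frames. In mock neurons its signal was 42.1 at the lowest, 54.1 at the median and 92.0 at the highest, and in mock supporting cells 7.28, 15.4 and 32.7. Every mock neuron region lay above every mock supporting-cell region. The difference was 1.75 (SE 0.146, adjusted p = 3.68e-30 by limma), and a two-sided permutation test over the regions gave 2e-05, the smallest p its 100000 resamples allow. Groups that do not overlap were rare in this comparison, with 29 of 4686 genes, or 0.619%.

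After noise, Snrpn read 26.0, 50.0 and 72.8 in neurons and 10.9, 13.8 and 23.7 in supporting cells. These groups did not overlap either, as in 0.363% of the genes tested. The difference was 1.67 (SE 0.18, adjusted p = 5.81e-17 by limma), and the exact two-sided permutation test gave 7.94e-06, the smallest p of its 125970 arrangements. Within the captured areas that hold both region types, the neuron region was higher in 14 of 14 areas under mock and in 7 of 7 after noise. The difference of the noise effects, supporting cells minus neurons, was 0.07 (95% interval -0.40 to 0.54, adjusted p = 0.975 by limma), so the interval holds changes of either sign. Snrpb, which encodes SmB, the close relative of SmN in other cells, differed by -0.09 (SE 0.18) under mock. The neuron marker genes, on which the labels were checked above, moved with Snrpn across the region types, and their part in its difference was not tested.

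**Figure D1:**
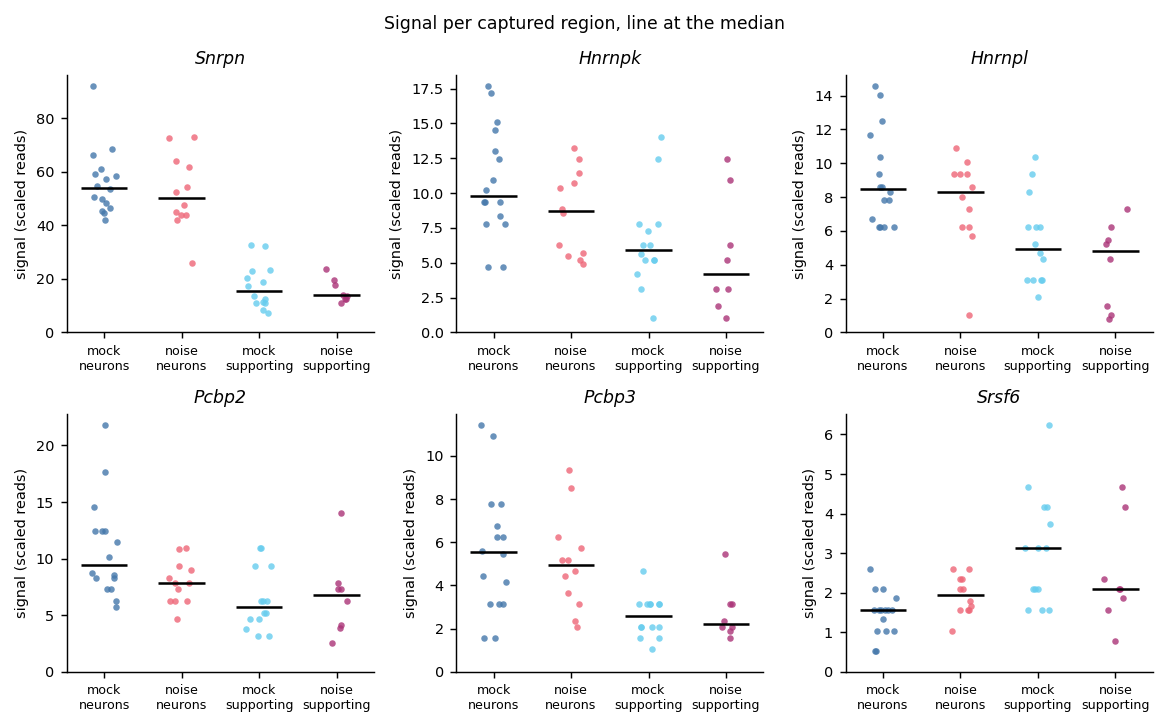
Deposited signal (vertical axis, scaled reads, linear from 0) of Snrpn, Hnrnpk, Hnrnpl, Pcbp2, Pcbp3 and Srsf6, with 1 point per captured region and a line at the median of each of the 4 groups. Snrpn regions of neurons lie between 26.0 and 92.0 and those of supporting cells between 7.28 and 32.7, while the groups of the other genes overlap.

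The other Sm genes tested sat close to 0 between region types. Snrpe, Snrpd3 and Snrpb, all subunits of the Sm ring, had differences of 0.00, -0.06 and -0.09 under mock. Snrpe read 0.780 to 3.12 in mock neurons and 0.624 to 4.68 in mock supporting cells, with a median of 1.56 in both. None of the 4 Sf3 genes tested was called: Sf3a1, Sf3b2, Sf3b4 and Sf3b6 ranged from -0.17 to 0.21 under mock. Among 8 Prpf genes tested, Prpf4 alone was called by limma in the setting used here. Prpf39 was called higher in neurons after noise with the negative probe subtracted (0.92, adjusted p = 0.0468) and with the mean of the olfactory receptor genes, a stand-in for background, as a covariate (0.71, adjusted p = 0.0468). Prpf39 had a median of 1 read in noise supporting cells, with 2 of 8 regions above the negative probe. Under mock, Prpf8, the scaffold at the heart of the spliceosome, differed by -0.06. Prpf19, a ubiquitin ligase of the activated complex, differed by 0.06 and Prpf31, a tri-snRNP protein, by 0.12. Prpf19 and Prpf31 had a median of 1 read in mock supporting cells, with 6 and 5 of 14 regions above the negative probe. Values near 0 at this depth do not show equal expression.

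The hnRNP genes were higher in neurons for 3 of 11 tested, beside 13.8% of all genes; all genes tested with symbols from A to K, the stretch that holds this family, had a median of 0.30 under mock. Hnrnpk, whose protein binds C-rich RNA and DNA, read 4.68, 9.80 and 17.7 (lowest, median, highest) in mock neurons and 1.04, 5.92 and 14.0 in mock supporting cells. Its difference was 0.71 (SE 0.20, adjusted p = 0.00382 by limma), and 14 of 16 regions of neurons exceeded the mean of supporting cells. The groups overlapped over most of their range.

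Hnrnpl, whose protein binds CA repeats, read 6.24, 8.45 and 14.6 in mock neurons and 2.08, 4.94 and 10.4 in mock supporting cells. The difference was 0.71 (SE 0.20, adjusted p = 0.00395 by limma), with 16 of 16 regions of neurons above that mean of supporting cells and the neuron region higher in 13 of 14 areas. Hnrnph1, which binds G-rich runs, had a median of 5 reads in mock neurons and 1.5 in mock supporting cells. In the latter, 7 of 14 regions stood above the negative probe. The Hnrnph1 difference was 0.52 (adjusted p = 0.0337 by limma). That call was lost with median centring (0.40, adjusted p = 0.114), in edgeR on recovered reads, at a difference no smaller (0.60, adjusted p = 0.190), and in 9 of 30 fits that left out 1 region each.

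Hnrnpl and Hnrnpk were called again after noise. Hnrnpl read 1.04, 8.30 and 10.9 in noise neurons and 0.780, 4.78 and 7.28 in noise supporting cells, a difference of 0.89 (SE 0.25, adjusted p = 0.00875 by limma; exact permutation p = 0.0164, two-sided). Within areas the neuron region was higher in 5 of 7, lower in 1 and equal in 1, with a median difference of 0.42. The neuron region at 1.04 was the single one of 12 below the mean of supporting cells. Without noise supporting-cell replicate 4 or replicate 7 the Hnrnpl call after noise was lost.

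Hnrnpk after noise read 4.90, 8.71 and 13.3 in neurons and 1.04, 4.16 and 12.5 in supporting cells, a difference of 0.77 (SE 0.25, adjusted p = 0.0317 by limma). That call was lost in 9 of 20 fits that left out 1 region each and in 4 of 12 other settings, among them edgeR on recovered reads. Together with Snrpn these were the 3 members called after noise, 5.17% of those tested, against 8.28% of all genes, or 6.94% higher and 1.34% lower. The median over the members after noise was -0.04, and over all genes 0.05.

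The other hnRNP genes were not called between region types by limma in the setting used here. Hnrnpa1, an abundant splicing repressor, came nearest under mock, with 1.56, 3.27 and 7.02 in neurons against 1.04, 1.56 and 6.24 in supporting cells and a difference of 0.48 (SE 0.19, adjusted p = 0.0548 by limma). Its median was 4 reads in mock neurons and 1.5 in mock supporting cells. Hnrnpa1 passed the threshold with the filter at the median of all genes (adjusted p = 0.0443) and with robust eBayes (0.0475). It also passed with the negative probe subtracted (0.95, adjusted p = 0.00576), where Hnrnpa3 and Hnrnpul2 were called as well. Hnrnpa2b1, which also carries mRNAs along processes, differed by -0.07, and Hnrnpu, a nuclear scaffold protein, by -0.18. The median over the 11 Hnrnp genes tested was 0.26 under mock and 0.24 after noise. Over all genes from A to K the medians were 0.30 and 0.30.

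Poly(C)-binding proteins share the KH domain with hnRNP K. Pcbp3 read 1.56, 5.54 and 11.4 in mock neurons and 1.04, 2.60 and 4.68 in mock supporting cells. Its median was 7 reads in the former and 2 reads in the latter. The difference was 0.79 (SE 0.20, adjusted p = 8.88e-04 by limma), and 14 of 16 regions of neurons exceeded the mean of supporting cells. After noise it was 0.67 (SE 0.25, adjusted p = 0.0721 by limma), with the neuron region higher in 6 of 7 areas and equal in 1. That call turned on the setting: Pcbp3 passed after noise in edgeR on recovered reads (0.89, adjusted p = 0.0403), with the negative probe subtracted (1.10, adjusted p = 0.0350) and with robust eBayes (adjusted p = 0.0449).

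Pcbp2 read 5.72, 9.43 and 21.8 in mock neurons and 3.12, 5.72 and 10.9 in mock supporting cells. Its difference was 0.70 (SE 0.20, adjusted p = 0.00452 by limma), and the neuron region was higher in 12 of 14 areas. After noise the value was 0.32 (SE 0.25, adjusted p = 0.527 by limma); the change between treatments was 0.38 supporting minus neurons (SE 0.33, adjusted p = 0.917), so the gaps were not shown to differ. Pcbp1 and Pcbp4 differed by 0.44 (adjusted p = 0.103 by limma) and 0.06 under mock. The mean of the olfactory receptor genes, which stand in for background, was added as a covariate. It ended the limma calls under mock of Hnrnpl (0.59, adjusted p = 0.217) and Pcbp2 (0.66, adjusted p = 0.131). Their differences stayed close to those without it, and the calls of Snrpn, Pcbp3, Hnrnpk, Hnrnph1 and Srsf6 were kept. That mean itself differed by region type, at 1.41 ± 0.112 (SD, n = 16) in mock neurons and 1.65 ± 0.0777 (n = 14) in mock supporting cells. Background and region type therefore cannot be told apart in that fit.

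**Figure D2:**
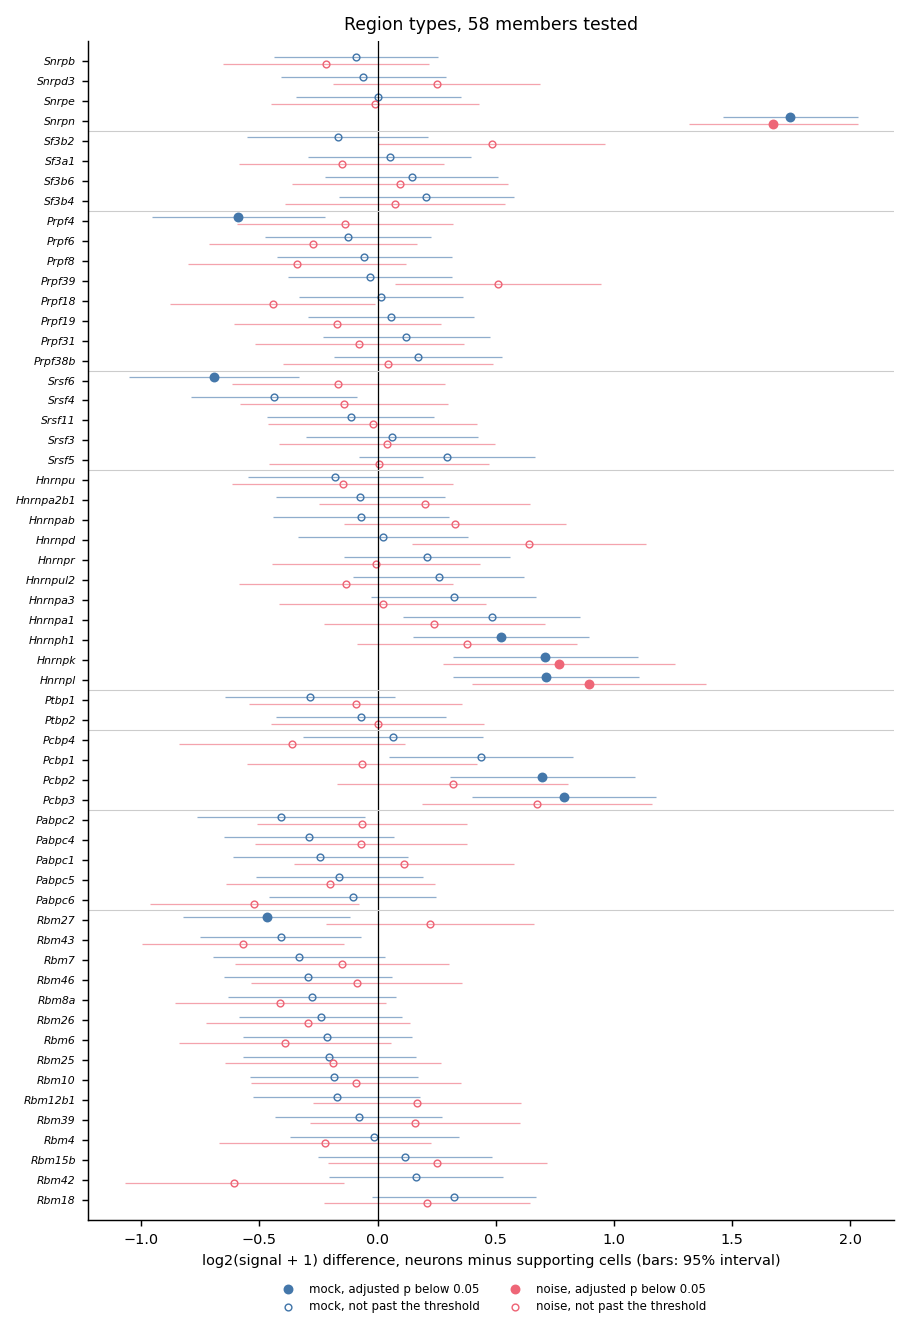
Differences between neurons and supporting cells (horizontal axis, log2(signal + 1) units) for the 58 members tested, under mock in blue and after noise in red, grouped by family, with 95% intervals as bars and filled points for an adjusted p below 0.05. Snrpn stands at 1.75 and 1.67, and no other member passes 0.89 in either direction.

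The 3 members lower in neurons were measured from few reads, as were Hnrnph1 and Pcbp3 in mock supporting cells. Srsf6, an SR protein that promotes exon inclusion, read 0.520, 1.56 and 2.60 in mock neurons and 1.56, 3.12 and 6.24 in mock supporting cells. The difference was -0.69 (SE 0.18, adjusted p = 0.00182 by limma; two-sided permutation p = 0.0001), with 0 of 16 regions of neurons above the mean of supporting cells. Within areas the neuron region was lower in 11 of 14 and equal in 3. The recovered reads of Srsf6 had a median of 2 in both groups, beside the higher worth of 1 read and the higher negative probe in supporting cells. Srsf6 was still called with the negative probe subtracted (adjusted p = 0.0409 by limma), with the olfactory receptor covariate (adjusted p = 0.011) and by edgeR on the reads (adjusted p = 0.00601). After noise Srsf6 read 1.04, 1.93 and 2.60 in neurons and 0.780, 2.08 and 4.68 in supporting cells, a difference of -0.17 (SE 0.23, adjusted p = 0.766 by limma).

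Prpf4, a protein of the U4/U6 particle, read 0.445, 1.56 and 4.68 in mock neurons and 1.56, 2.60 and 8.32 in mock supporting cells (-0.59, SE 0.19, adjusted p = 0.0118 by limma). Its value was -0.05 with the olfactory receptor covariate (adjusted p = 0.954 by limma), which itself differed by region type. The call was also lost with the negative probe subtracted, at a like difference of -0.54 (adjusted p = 0.154 by limma). Rbm27, a zinc-finger protein that takes part in RNA decay in the nucleus, had a difference of -0.47 (SE 0.18, adjusted p = 0.0453 by limma). The call was lost in 7 of 11 other settings, and its median was 2 reads in mock neurons and 1 read in mock supporting cells.

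By limma in the setting used here, no other SR, Ptbp, Pabp or Rbm gene was called between region types. Other settings called some, among them Rbm42, Srsf4, Pabpc2 and Rbm43: edgeR on recovered reads called Rbm42 lower in neurons after noise (-1.08, adjusted p = 0.0124), and median centring called the other 3 lower under mock (-0.56, -0.53 and -0.53). Srsf3, Srsf5 and Srsf11 differed by 0.06, 0.29 and -0.11 under mock. Ptbp1, the repressor of neuronal exons, read 0.891, 1.56 and 4.68 in mock neurons and 1.04, 2.29 and 6.24 in mock supporting cells, a difference of -0.29 (SE 0.18, adjusted p = 0.280 by limma). Ptbp2, its neuronal counterpart, differed by -0.07, with a median of 1.56 in both groups. No difference of either Ptbp gene between region types was detectable at this depth.

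The 5 Pabp genes tested all had values below 0 under mock, from -0.41 for Pabpc2 to -0.11 for Pabpc6, with none called. Pabpc1, the main cytoplasmic poly(A)-binding protein, read 1.04, 2.51 and 4.68 in mock neurons and 1.04, 3.12 and 7.80 in mock supporting cells. Of 15 Rbm genes tested, 12 had values below 0 under mock, with a median of -0.21. Rbm10, Rbm25 and Rbm39, all cofactors of splice-site choice, differed by -0.18, -0.21 and -0.08. Over all genes from N to Slc26, the stretch that holds the Pabp and Rbm genes, the median was -0.15.

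**Figure D3:**
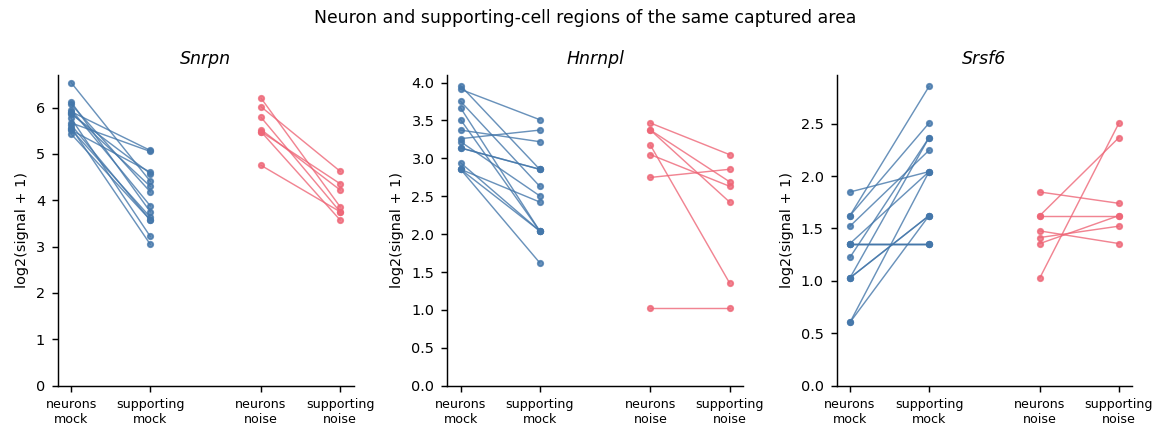
Log2(signal + 1) of Snrpn, Hnrnpl and Srsf6 (vertical axis, from 0) in the neuron and supporting-cell regions of the same captured area, joined by lines, for 14 mock areas in blue and 7 noise areas in red. Every Snrpn line falls from neurons to supporting cells, 13 of 14 mock Hnrnpl lines fall, and no mock Srsf6 line falls.

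Noise was then compared with mock within each region type, which is the comparison the study was built on. In neurons no member was called (0 of 58, beside 0.662% of all genes, 31 of 4686, by limma without a block). At an unadjusted p below 0.05 there were 3 members, Hnrnpa1, Pabpc4 and Rbm12b1, beside 13.5% of all genes, and edgeR on the recovered reads called 0 members beside 3.2% of all genes. The smallest adjusted p of a member was 0.266. The 58 differences ran from -0.48 to 0.46, with a median of 0.00 against 0.02 over all genes. Their 95% intervals lay between -0.88 and 0.84. These intervals treat regions as independent and are too narrow, so they set no bound on a difference between animals.

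Hnrnpa1 had the lowest value in neurons. It read 1.56, 3.27 and 7.02 after mock and 1.04, 2.31 and 5.35 after noise, a difference of -0.48 (SE 0.20, adjusted p = 0.266 by limma), with 2 of 12 noise regions above the mock mean. Pcbp4 followed with -0.37 (adjusted p = 0.41). Among members with a mean of 2.30 or more (the median over tested genes), the largest positive values were those of Prpf4, 0.24 (adjusted p = 0.623), and Rbm25, 0.19 (adjusted p = 0.708).

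None of the genes that set neurons apart was called for noise in neurons. Snrpn differed by -0.13 (SE 0.16, adjusted p = 0.759 by limma), with neuron medians of 54.1 after mock and 50.0 after noise. Hnrnpk, Hnrnpl and Pcbp3 differed by -0.28, -0.27 and -0.07, and Pcbp2, at -0.36 (adjusted p = 0.434 by limma), had the third lowest value among the members. All 11 neuron markers had values below 0 in the same comparison, with a median of -0.42 and Nefh called. The part of this in the members' values was not tested.

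In supporting cells no member was called either (0 of 58, beside 0.363% of all genes, 17 of 4686). At an unadjusted p below 0.05 there were again 3, Rbm42, Hnrnpd and Sf3b2, beside 10.1% of all genes, and edgeR on the recovered reads called 0 members beside 0.171% of all genes. The differences ran from -0.63 to 0.64, with a median of 0.02 against -0.03 over all genes and intervals between -1.12 and 1.10. The summed signal of 6 glial markers in these regions was 28.1 to 59.3 after mock and 17.7 to 26.0 after noise, and the part of this in the members' values was not tested.

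Rbm42, whose protein binds hnRNP K, had the largest positive value. It read 1.04, 1.82 and 4.68 in mock supporting cells and 1.56, 4.26 and 7.02 in noise supporting cells, a difference of 0.64 (SE 0.23, adjusted p = 0.230 by limma), with 7 of 8 noise regions above the mock mean. In neurons the value was -0.12 (SE 0.20). The difference of these effects was 0.77 (SE 0.31, adjusted p = 0.601 by limma), which did not pass the threshold.

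Hnrnpd, whose protein AUF1 binds AU-rich elements, read 1.04, 1.56 and 7.80 in mock supporting cells and 0.780, 1.04 and 1.56 in the 6 noise regions with a value; replicates 2 and 5 held none. The difference was -0.63 (SE 0.25, adjusted p = 0.313 by limma). Hnrnpd had a median of 1 read in both groups, with 6 of 14 mock and 2 of 6 noise regions above the negative probe. With median centring, which moved the median of all genes to -0.201, Hnrnpd passed the threshold at -0.86 (adjusted p = 0.0465). Sf3b2 of the branch-site complex read 1.04, 3.12 and 7.80 after mock and 0.780, 2.03 and 4.16 after noise (-0.52, SE 0.24, adjusted p = 0.425), and Sf3b4 had a value of 0.27 (adjusted p = 0.766).

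**Figure D4:**
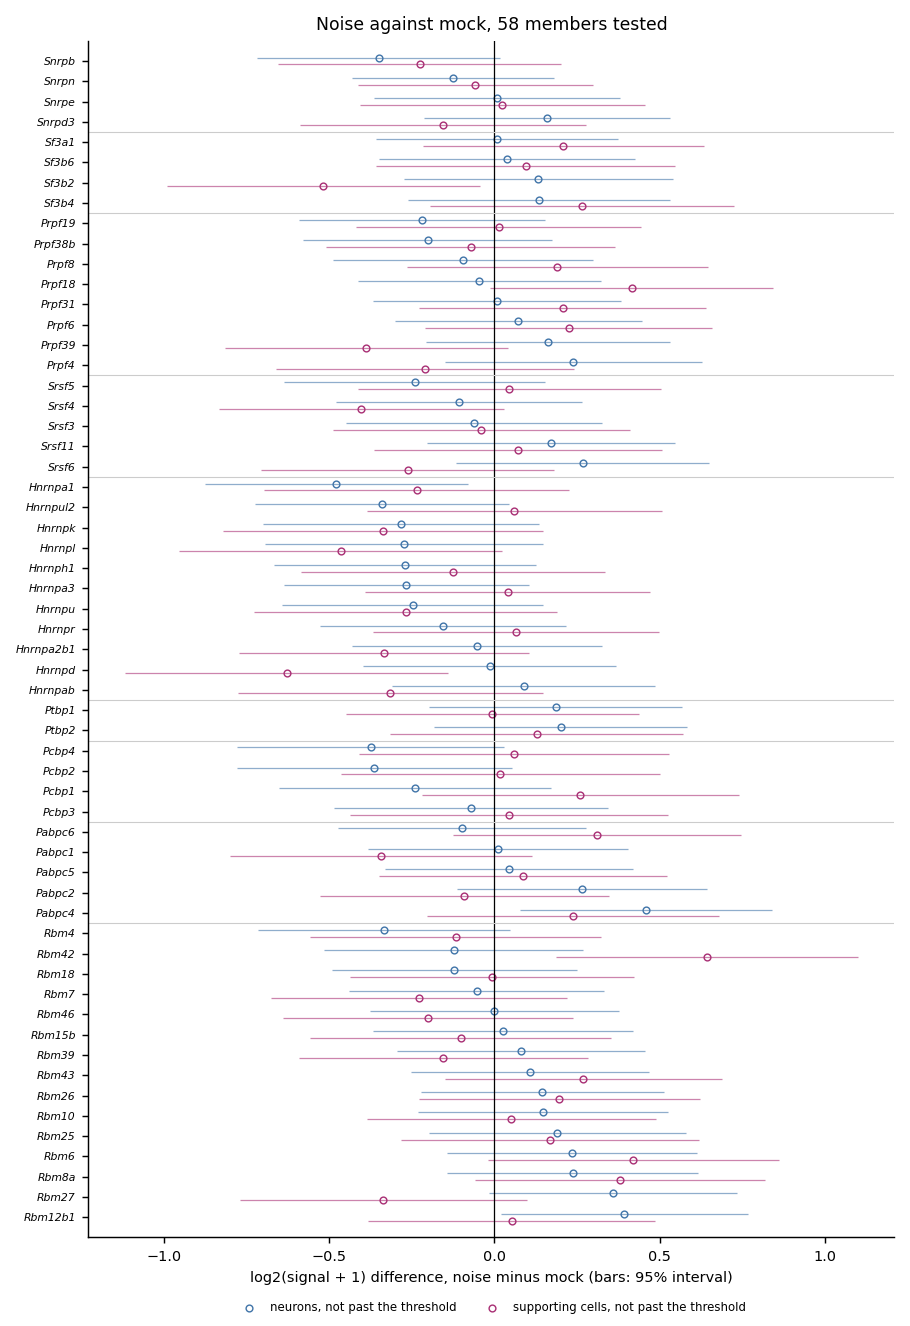
Differences between noise and mock (horizontal axis, log2(signal + 1) units) for the 58 members tested, in neurons in blue and in supporting cells in purple, grouped by family, with 95% intervals as bars. No point passes the threshold, and the values lie between -0.63 and 0.64.

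By family, the Hnrnp genes had a median noise difference of -0.27 in neurons, with 10 of 11 values below 0, and of -0.27 in supporting cells, with 8 of 11 below 0. None was called. Over all genes from A to K the medians were -0.19 and -0.17, and over all genes from N to Slc26 they were 0.12 and 0.04, so the family's values stand beside a shift of its stretch of the alphabet; its part was not tested. The 4 Pcbp genes had a median of -0.30 in neurons and 0.05 in supporting cells, the Rbm genes 0.11 and 0.05, and the Snrp genes -0.06 and -0.11. Ptbp1 and Ptbp2 had values of 0.19 and 0.20 in neurons and of -0.01 and 0.13 in supporting cells.

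The noise effects in the region types were not shown to differ for any member (0 of 58 called, beside 0% of all 4686 genes, by limma; unadjusted, 3 members beside 5.61% of all genes; edgeR 0 members). The members' values ran from -0.70 for Rbm27 to 0.77 for Rbm42, supporting cells minus neurons, with a smallest adjusted p of 0.601. Intervals reached from -1.28 to 1.37, so differences of 1 or more in either direction are not outside all of them.

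Other genes of splicing were taken from a list. Of 92 further spliceosome genes, 38 were in the files and 23 were tested. None was called in either noise comparison or in their difference. Under mock, Wbp4, a protein of spliceosome assembly, was higher in neurons by 0.90 (SE 0.19), and so was Srrm2, a scaffold of nuclear speckles, by 0.58 (SE 0.20), beside 13.8% of all genes called higher. After noise Wbp4 alone was called, beside 6.94%, at 0.92 (SE 0.24, adjusted p = 0.004 by limma). Wbp4 had a median of 1 read in supporting cells under either treatment, and of 4 and 6 reads in neurons, mock first.

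Of 63 other splicing regulators, 31 were in the files and 25 were tested, again with none called for noise against mock in either region type. Under mock, 6 were higher in neurons and 3 lower, beside 13.8% and 6.19% of all genes. The higher ones were Elavl4 by 1.61 and Elavl3 by 0.53, both neuronal ELAV proteins, Mbnl1 by 0.90 and Mbnl2 by 0.56, both muscleblind proteins, the helicase gene Ddx5 by 0.78 and the nuclear matrix gene Matr3 by 0.76 (limma). Lower in neurons were Qk by -0.85, a regulator of glial splicing, with Rbmx and Sfpq at -0.52 and -0.47. The last 2 had adjusted p-values of 0.0269 and 0.0470 by limma, with medians of 2 reads and 1 read in mock neurons. Elavl3 had a median of 1 read in mock supporting cells, where its mean of 1.34 was below that of the negative probe, 1.54. Elavl4 read a mean of 11.8 in mock neurons and 3.17 in mock supporting cells, and Qk 4.10 and 8.03. After noise Mbnl2 was higher by 0.91 and Qk lower, at -0.79, each the one call in its direction beside 6.94% and 1.34% of all genes, while Elavl4 stood at 0.62 (adjusted p = 0.117 by limma).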

How the data were processed

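Probe signal was measured by GeoMx in 51 captured cochlear regions. The deposited signal was scaled by the authors to a common upper quartile, as the values show. The submitters' processing notes name DRAGEN and mm10 (GRCm38), with no role given; probe design, gene filter and the handling of 0 reads are not stated there. A total of 66 entries held no number and were treated as missing. Noise supporting-cell regions held 60 of these 66, and 3 of the 66 were in members.

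The group means of log2(signal + 1) were fitted with limma 3.58.1 in R 4.3.3 (lmFit, eBayes with a trend) over 50 regions. The filter on low values kept 4686 of 6248 genes, whose mean reached the 0.25 quantile (1.85), and p-values were adjusted by Benjamini-Hochberg over all of them. Each SE rests on a spread shared by genes with like means, which is too small for a gene more variable than those. Region types were compared with the captured area as a random block (correlation 0.0389); areas were named differently by treatment, so slide and treatment cannot be told apart. Permutation tests used scipy 1.17.1. Other settings were edgeR 4.0.16 on recovered reads (4685 genes, 40 missing entries filled with the group median), pseudocounts, filters, centring, background terms, blocks, and each region left out in turn.

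Members and gene lists were chosen with earlier results of these data known. Genes named were 28 members fixed by role, all called members, and the 2 largest rises and falls per comparison among tested members with a mean of 2.30 or more. Hnrnpa3, Hnrnpul2, Pabpc2, Pabpc4, Pabpc6, Prpf39, Rbm12b1, Rbm43, Sf3b6 and Srsf4 were named after their values were seen. Protein sequences were not used here, and some glial markers are not reported here.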

Additional observations from a re-analysis of the deposited data

Results flagged for a closer look

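Chance sets about 1 in 20 groups apart by the gap rule used here, and 35 quantities were examined in the 8 noise supporting-cell regions, the one group small enough for it. In 4 of them a single region stood far from the others. Hnrnph1 read 4.68 in replicate 4 (6 reads), against 1.04 to 2.34 in the other regions. Pcbp3 read 5.46 in the same replicate (7 reads), against 1.56 to 3.12. Pcbp2 read 14.0 in replicate 2 (9 reads), against 2.49 to 7.80. The negative probe read 1.89 in replicate 2 as well, against 1.24 to 1.44.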

How the results depend on the processing

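Under 12 other settings and with each of 50 regions left out in turn, no gene called changed sign. The medians over the members lie near 0 and did change sign: over the 12 settings they ran from -0.13 to 0.04 for noise in neurons, -0.16 to 0.09 for noise in supporting cells, -0.01 to 0.14 for their difference, -0.18 to 0.22 between region types under mock and -0.15 to 0.14 after noise. The count of members called for noise in supporting cells went from 0 to 1 with median centring (Hnrnpd). Between region types under mock, 9 members became 5 with the olfactory receptor covariate, and the median of -0.06 became 0.22 with the negative probe subtracted. After noise, 3 members became 5 with the negative probe subtracted. Replicate numbers did not pair the regions (median correlations of same-numbered regions from -0.013 to 0.010, none of the pairs over 0.1); with the replicate number as a block, 5 members were called after noise and 7 under mock, where Hnrnph1, Prpf4 and Rbm27 were lost and Hnrnpa1 was gained; no call for noise changed. Leaving out 1 region gave 7 to 11 members under mock, 1 to 5 after noise, and 0 for each noise comparison and for their difference. The count of 1 came without noise supporting-cell replicate 7 and that of 5 without noise neuron replicate 10. The olfactory receptor covariate, which itself differed by region type, moved the split under mock to 372 higher of 412 genes, and to 4 higher of 5 members. Median centring moved the median of all genes by noise to -0.112 in neurons and -0.201 in supporting cells. All genes called for noise in neurons numbered 31, against 103 with median centring, 150 by edgeR on reads, 7 with the negative probe subtracted, 3 with the covariate and 19 with the replicate block; in supporting cells 17 became 110 with median centring and 8 by edgeR. Depth limits most members, at a median of 1.5 to 3 reads per region.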
